A study of Rattus norvegicus with 4 samples.

Results

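Probe sets for the AP-1 and Egr immediate early transcription factors were followed at 2 culture temperatures in RTEC11, a conditionally immortalized line of rat tracheal epithelium. The members were the probe sets annotated to exactly 1 gene symbol, where that symbol was Jun, Junb, Jund, Fos, Fosb, Fosl1, Fosl2, Egr1, Egr2 or Ier3. These were 15 of the 15866 probe sets that are not controls, and 10 of the 10411 genes with a probe set of their own. Jun had 3 probe sets, Jund, Fos and Egr2 had 2 each, and the other members had 1 each. Probe sets of 1 gene share its transcripts and are not replicates.

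RTEC11 cells came from transgenic rats that carry a temperature-sensitive large T antigen of simian virus 40, which inactivates p53 and the retinoblastoma proteins. All 4 samples were this 1 cell line, kept for 3 days at 33 °C, the permissive temperature at which the antigen is active, or at 39 °C, the nonpermissive temperature at which it is not. There were 2 arrays per temperature, numbered 1 and 2 in the labels, and no sample without the antigen. The antigen's own transcript was not analysed here, and temperature and antigen activity changed together, so they cannot be told apart. The labels do not say whether the 2 samples of a temperature were separate cultures, and p-values reflect only array-to-array spread, which may be technical.

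AP-1 is a pair of proteins joined through leucine zippers. Jun proteins can pair with each other or with Fos proteins, while Fos proteins need a Jun partner to bind DNA. Most of these genes are immediate early genes, transcribed within minutes of a growth factor or stress signal through factors such as SRF and CREB and without new protein synthesis. Egr1 and Egr2 are zinc finger factors induced by the same signals, and Ier3 is an early response protein that acts on cell survival. A sample taken after 3 days measures their standing level and not the brief early response.

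Promoter sequence from RefSeq (GRCr8) was listed for 7 of the 10 members, and not listed for Jun, Fos and Ier3. The 250 bases before each annotated start were searched for the CArG box, the site of SRF, for TGACGTCA, the cAMP response element, for TGACTCA, the AP-1 site, and for GCGTGGGCG and GCGGGGGCG, sites of Egr factors, on both strands, and for TATAAA on the gene's strand. None of the matches overlapped another. Egr1 and Fosl2 are shown as the Fos and Egr family genes whose probe sets passed the test, and Egr2 because it carries the same CArG box as Egr1. Sequences run 5′ to 3′ on the gene's strand, and capitals mark motif matches.
Egr1 (chr18:26736828-26737077, plus strand): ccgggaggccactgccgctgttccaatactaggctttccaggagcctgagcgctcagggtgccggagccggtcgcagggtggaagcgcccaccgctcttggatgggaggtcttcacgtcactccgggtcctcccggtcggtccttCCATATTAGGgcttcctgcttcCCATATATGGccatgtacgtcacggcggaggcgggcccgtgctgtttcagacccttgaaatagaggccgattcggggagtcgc
Egr2 (chr20:21054442-21054691, minus strand): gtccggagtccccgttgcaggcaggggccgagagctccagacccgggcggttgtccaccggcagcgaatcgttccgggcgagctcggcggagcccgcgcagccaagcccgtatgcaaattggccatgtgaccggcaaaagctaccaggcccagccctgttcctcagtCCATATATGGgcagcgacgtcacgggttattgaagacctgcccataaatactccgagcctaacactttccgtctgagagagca
Fosl2 (chr6:30039270-30039519, minus strand): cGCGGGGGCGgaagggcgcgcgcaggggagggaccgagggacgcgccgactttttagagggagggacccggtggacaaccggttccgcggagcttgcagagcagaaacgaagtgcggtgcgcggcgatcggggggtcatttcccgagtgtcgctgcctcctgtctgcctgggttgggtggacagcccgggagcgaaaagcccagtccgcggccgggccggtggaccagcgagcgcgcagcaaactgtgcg

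The Egr1 promoter held 2 CArG boxes, at -105 to -96 and at -83 to -74 counted from the start, and Egr2 held 1, at -83 to -74. The second box of Egr1 and that of Egr2 have the same letters, CCATATATGG. Of the 33469 promoter windows in the table, 1.5% held a CArG box. Fosl2 held GCGGGGGCG at -249 to -241, found in 2.45% of windows. Jund held TGACGTCA at -221 to -214, found in 1.59% of windows, and GCGTGGGCG at -76 to -68, found in 0.478%. Junb held TATAAA at -49 to -44, found in 8.06% of windows, and no match was found in the windows of Fosb and Fosl1. The windows of Fosb and Egr2 lie inside the listed spans of their genes (88082324 to 88089506 on chromosome 1, 21050149 to 21055201 on chromosome 20). Sequence upstream of those 2 spans was not searched. TGACTCA was in none of the 7 windows and in 4.05% of all. A match describes letters only, and no binding was measured in these samples.

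At 39 °C the cells held more Jun transcript, more Fosl2 and less Egr1 than at 33 °C, while no change was called for Junb, Jund, Fos, Fosb, Fosl1 and Egr2. Fosl2 rose from a low level, and its call was lost on the spike-in scale and in most fits with 1 array left out. Ier3 was called higher by a small amount that depended on how the arrays were scaled. Of the 15 member probe sets, 5 were called higher, 1 was called lower and 9 were not called (limma, adjusted p under 0.05 over all probe sets). Over all 15866 probe sets 24.7% were called, 12.1% as higher and 12.6% as lower. Of all probe sets above the dim limit (the 40th percentile of mean level) 38.1% were called, 18.3% as higher and 19.8% as lower. Fosl2 lies above this limit only through its 39 °C arrays, so no count of the members above it is read against these shares. The number of member probe sets called higher was 1 without nonpermissive array 1 and 2 without nonpermissive array 2. On the spike-in scale 2 were called higher and 2 lower, and after median centring 4 and 2. Without permissive array 2 they were 5 and 2. Without the intensity trend in limma's variance model 2 were called higher and 0 lower, with 1 lower at an unadjusted p under 0.05. The 5 probe sets called higher belong to 3 genes, since 3 of them measure Jun. The median log2 change was 0.29 over the 15 member probe sets and -0.03 over all probe sets. In other scalings the deposited values were used as they stand, each array was centred on its median, or each was set to its poly-A control probe sets, here the spike-in scale. Levels are given as deposited intensities or as log2(intensity + 16) after quantile normalization, and changes as the difference of the latter, 39 °C minus 33 °C. A probe set is called dim where its mean level lay under the 40th percentile of all, a log2 level of 6.60. Of the member probe sets, 9 were above this limit and 6 below it.

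**Figure D1:**
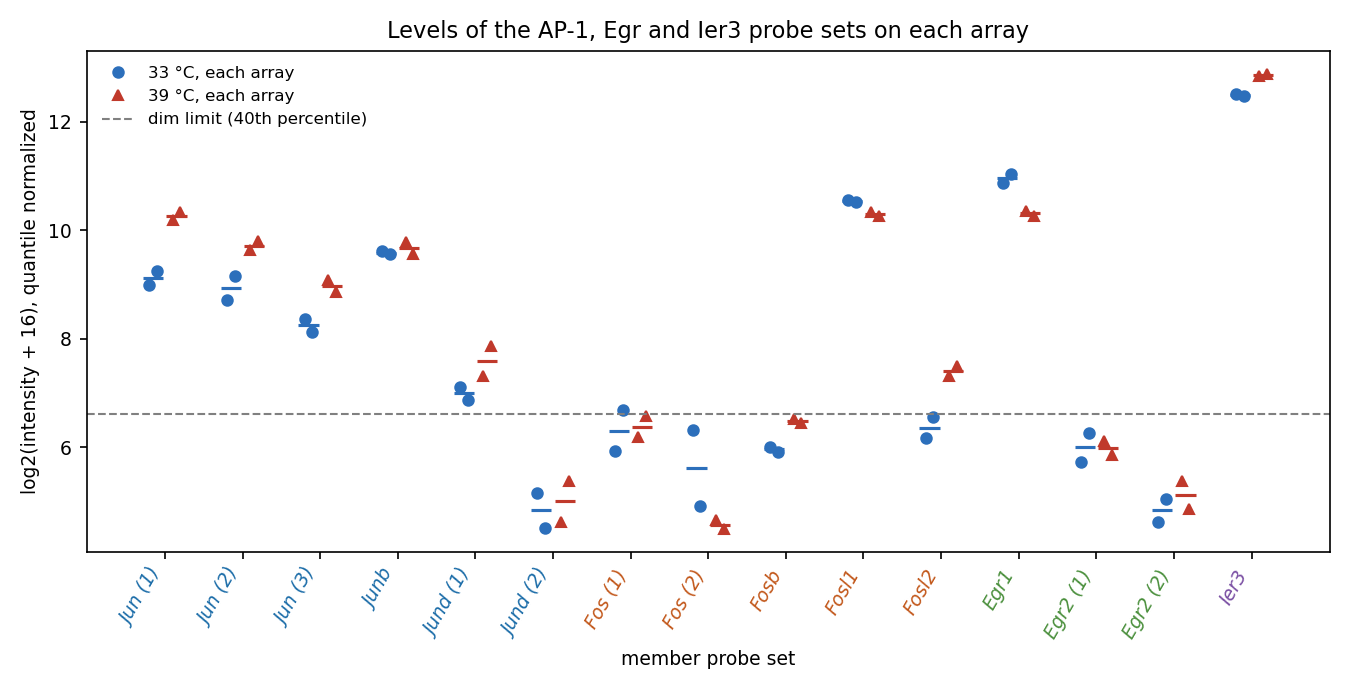
Level of each member probe set on each array, as log2(intensity + 16) after quantile normalization. Circles are the 2 arrays at 33 °C, triangles the 2 arrays at 39 °C, short bars their means, and the dashed line the dim limit of 6.60. Probe sets of 1 gene are numbered from the brightest. Jun is higher and Egr1 lower at 39 °C on both arrays, and both Fos probe sets lie near or under the limit.

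Among the Jun family, Jun, the partner common to most AP-1 pairs, was higher at 39 °C by each of its 3 probe sets. The gene lies on chromosome 5 (GRCr8, 115009900 to 115012993). Its brightest probe set, 1389528_s_at, read 478 and 577 at 33 °C and 1163 and 1268 at 39 °C in deposited intensity. Both 39 °C arrays lay well above both 33 °C arrays. The log2 level went from 9.12 ± 0.18 to 10.26 ± 0.10 (SD, n = 2 each), a change of 1.14 ± 0.12 (SE) or 2.21-fold, with an adjusted p of 0.000702 by limma. This change stood at the 96.3rd percentile of the changes of all probe sets.

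The second Jun probe set, 1369788_s_at, read 384 and 541 at 33 °C and 783 and 889 at 39 °C. Its change was 0.78 ± 0.16 (SE), with an adjusted p of 0.0127 by limma. The third, 1374404_at, read 300.1 and 251 at 33 °C and 534 and 464 at 39 °C, with a change of 0.72 ± 0.15 (SE) and an adjusted p of 0.0132. Neither probe set overlapped between the temperatures. Without the intensity trend in the variance model both were not called (adjusted p 0.0934 and 0.0714). The call of the second was also lost without nonpermissive array 1 (adjusted p 0.0554) or 2 (0.102), and that of the third without nonpermissive array 1 (0.110). On the spike-in scale the second was at 0.47 and the third lost its call (0.44, adjusted p 0.0846), while the brightest kept its call under every scaling (0.80 to 1.19) and with any 1 array left out (1.01 to 1.26). The first and the third are annotated to the same expressed sequence tag, and the _s_at ending marks probe sets whose probes may match more than 1 transcript.

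Junb, which often opposes Jun in growth control, was at an even level. Its intensities were 759.8 and 731 at 33 °C and 874 and 752 at 39 °C, so the groups overlapped. The change of 0.08 ± 0.11 (SE) did not pass (adjusted p 0.658 by limma), and it was -0.03 after median centring and -0.26 on the spike-in scale.

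Jund, the Jun protein present in most resting cells, was measured by a probe set just above the dim limit. The probe set 1387762_s_at read 114 and 95.1 at 33 °C and 152 and 229 at 39 °C. The groups did not overlap, and the 39 °C arrays had an SD of 0.39 on the log2 scale. The change of 0.59 ± 0.27 (SE) did not pass (adjusted p 0.176 by limma). It was 0.31 without nonpermissive array 2, 0.89 without nonpermissive array 1 and 0.37 on the spike-in scale. The other Jund probe set read 6.30 to 25.1 over the 4 arrays, all under the limit, with a change of 0.16 ± 0.39 (SE) that ranged from -0.22 to 0.53 when 1 array was left out.

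In the Fos family, Fos itself was dim on both of its probe sets. The brighter, 1375043_at, read 41.9 and 82.9 at 33 °C and 64 and 79.5 at 39 °C, a change of 0.07 ± 0.38 (SE) with overlapping groups. This change had no stable sign, at -0.31 without permissive array 1, 0.46 without permissive array 2, 0.27 without nonpermissive array 1, -0.12 without nonpermissive array 2 and -0.17 on the spike-in scale. The other, 1371283_at, read 59.6 and 12.7 at 33 °C and 10.6 and 6.30 at 39 °C. Its change of -1.04 ± 0.48 (SE) did not pass (adjusted p 0.173 by limma) and rests on permissive array 1. It was -0.36 without that array and -1.74 without permissive array 2, where it was called (adjusted p 0.02). Fosb, a close relative of Fos, was also dim, at 45.0 and 43.1 at 33 °C and 85.2 and 70.5 at 39 °C. Its change of 0.53 ± 0.31 (SE) did not pass (adjusted p 0.281), although the groups did not overlap.

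Fosl1 and Fosl2, which encode Fra-1 and Fra-2, lack the strong activation domain of Fos. Fosl1 was the brightest Fos family probe set, at 1498 and 1442 at 33 °C and 1274 and 1219 at 39 °C. Both 39 °C arrays lay below both 33 °C arrays by a small step. The change of -0.23 ± 0.08 (SE) missed the threshold (adjusted p 0.0781 by limma). It was called after median centring (-0.38, adjusted p 0.0145) and on the spike-in scale (-0.62, adjusted p 0.00184).

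Fosl2 rose from intensities of 52.6 and 73.4 at 33 °C to 154 and 173 at 39 °C. The log2 level went from 6.36 ± 0.28, under the dim limit, to 7.41 ± 0.13 (SD, n = 2 each), above it. The change was 1.05 ± 0.28 (SE) or 2.07-fold, with an adjusted p of 0.0336 by limma. Because of the low start the change depends on the number added to each intensity, and was 1.21 with 1 added and 0.74 with 64. The call was lost without permissive array 1 (adjusted p 0.102), without nonpermissive array 1 (0.132) or 2 (0.204), and on the spike-in scale (0.81, adjusted p 0.0676).

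Egr1, the zinc finger factor whose promoter carries the pair of CArG boxes above, was lower at 39 °C. It lies on chromosome 18 (GRCr8, 26737078 to 26740877). Its intensities were 1869 and 2111 at 33 °C and 1299 and 1213 at 39 °C, with no overlap. The log2 level went from 10.96 ± 0.11 to 10.31 ± 0.07 (SD, n = 2 each). The change was -0.64 ± 0.09 (SE), which is 1.56-fold lower, with an adjusted p of 0.00261 by limma. It was called lower under every scaling (-0.64 to -1.04) and with any 1 array left out (-0.56 to -0.72), and lost its call without the intensity trend in the variance model (adjusted p 0.0624).

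Egr2 was dim by both of its probe sets. The brighter read 35 and 57.9 at 33 °C and 60.6 and 39.4 at 39 °C, and the other read 7.90 to 29.6 over the 4 arrays. Their changes of -0.01 ± 0.35 and 0.29 ± 0.34 (SE) did not pass, with overlapping groups in both. The first ranged from -0.27 to 0.25 and the second from 0.02 to 0.56 when 1 array was left out. The related Egr3 and Egr4, from the list of other immediate early genes below, changed by 0.01 ± 0.23 and 0.15 ± 0.37 (SE) and were not called; both were chosen after their values were seen.

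Ier3 was the brightest member, at 5972 and 5939.6 at 33 °C and 7071 and 7321 at 39 °C. The change of 0.38 ± 0.08 (SE), 1.30-fold, passed with an adjusted p of 0.0119 by limma. It was not called after median centring (0.12, adjusted p 0.355) or on the spike-in scale, where it was -0.11 (adjusted p 0.479). The call was also lost without the intensity trend (adjusted p 0.131) and without nonpermissive array 1 (0.0629) or 2 (0.0842).

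**Figure D2:**
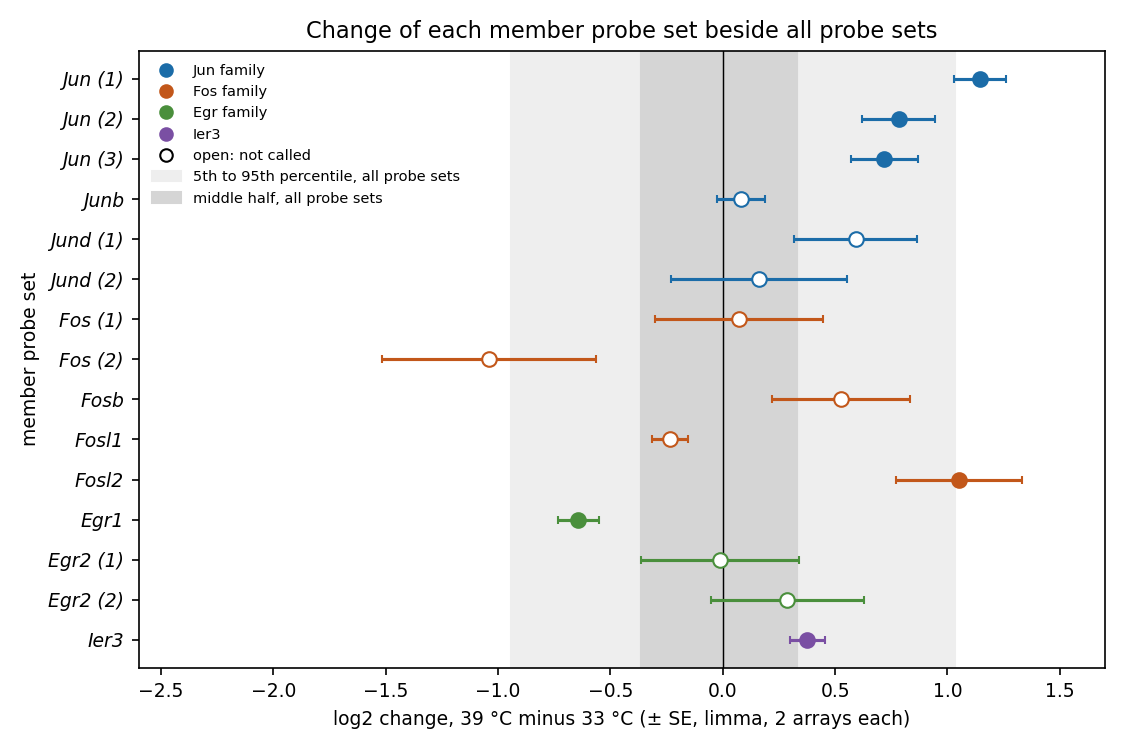
Log2 change of each member probe set, 39 °C minus 33 °C, with its standard error from limma (2 arrays per temperature). Filled points were called at an adjusted p under 0.05 and open points were not, colours mark the families, and the grey bands show the spread of the changes of all 15866 probe sets. The 3 Jun probe sets and Fosl2 lie to the right, and Egr1 to the left at -0.64.

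The Jun family was set against the Fos and Egr families as a description, with no test over members. All 6 Jun family probe sets had a change above 0, from 0.08 to 1.14, although Junb was below 0 after median centring (-0.03) and on the spike-in scale (-0.26), as was the dimmer Jund probe set on the latter (-0.15). The 3 called higher were those of Jun. Over the alternative fits described below, Junb was above 0 in 11 of 14 and the dimmer Jund probe set in 8 of 11. The latter reached -0.22 with 1 array left out. Of the 8 Fos and Egr probe sets, 4 had a change above 0, over a range of -1.04 to 1.05, with 1 called higher and 1 lower. The median change was 0.66 for the Jun family, 0.07 for the Fos family and -0.01 for the Egr family, and 0.03 for the Fos and Egr families together. The Jun median thus exceeded the other by 0.63, with 3 of the 6 Jun family probe sets from Jun alone. By the brightest probe set of each gene the Jun family median was 0.59, the value of Jund, which was not called. That of the Fos and Egr families was 0.03, a difference of 0.56. Over all member probe sets on the spike-in scale the Jun median was 0.41 and that of the Fos and Egr families -0.23, a difference of 0.64. The difference was 0.87 without permissive array 1 and 0.18 without permissive array 2. The Fos and Egr median was then -0.24 and 0.35, and the Jun median 0.63 and 0.53. In 10 of the 15 member probe sets the temperatures did not overlap, against 60% of all probe sets and 74.2% of those above the dim limit.

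Within an array the ratio of 2 genes does not depend on a shift of the whole array. By the brightest probe set of each gene, the log2 ratio of Jun to Egr1 was higher at 39 °C by 1.79 and that of Jun to Fosl1 by 1.38, with no overlap between the temperatures. The ratio of Jun to Fosl2 differed by 0.09. The ratio of Junb to Fosl2 was lower at 39 °C by 0.97. Over the 18 pairs of a Jun family gene with a Fos or Egr family gene, the Jun family gene had the higher change in 15 by quantile normalized levels. Quantile normalization is not a constant shift of an array, so this count can differ between scalings. On the deposited scale Jun changed by 1.186 and Fosl2 by 1.191, and Junb by 0.12 and Fos by 0.21, which reversed the order in these pairs. The pairs with Fos, Fosb and Egr2 rest on dim probe sets. No count of pairs above the dim limit is read, since Fosl2 lies above it only through its 39 °C arrays. With 2 arrays against 2 an exact two-sided permutation test of such a ratio cannot give a p below 0.333, so these differences were not shown by a test.

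**Figure D3:**
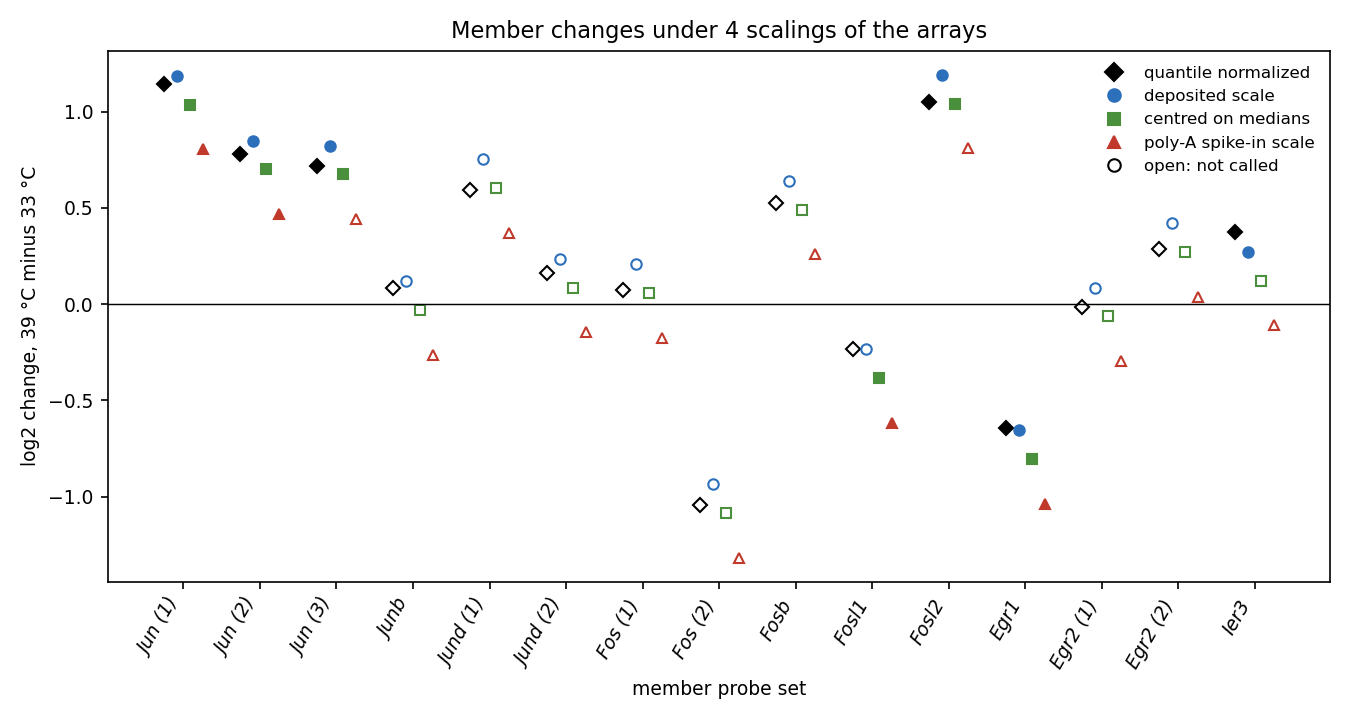
Log2 change of each member probe set under 4 scalings of the arrays, with filled symbols where it was called (adjusted p under 0.05) and open symbols where it was not. The brightest Jun probe set stays between 0.80 and 1.19 and Egr1 between -0.64 and -1.04. Junb, Ier3, the dimmer Jund probe set and the brighter probe sets of Fos and Egr2 cross 0, Ier3 from 0.38 to -0.11.

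Genes with the most similar levels across the 4 arrays were found by the root mean square distance of their centred log2 levels. For Jun these were Dusp22 (distance 0.029), Acmsd (0.030) and Ndufb2 (0.035). For Fosl1 they were Tmem134 (0.0076), Twist2 (0.0089) and Eif3a (0.011), and for Egr1 Tesk2 (0.023), Slc29a1 (0.024) and Acat1 (0.026). Acmsd and Twist2 were dim. With 4 arrays and 10411 genes to choose from, a close match carries little information.

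Other genes of the pathway were taken from 6 lists, each gene by its brightest probe set. By that measure 28.7% of all genes were called, 13.6% as higher and 15% as lower, and their median change was -0.04.

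Of 35 other immediate early genes, 31 had a probe set, of which 8 were called higher and 6 lower (median change 0.04). Txnip, which binds thioredoxin, rose by 1.30 ± 0.09 (SE), and Atf3, a stress-induced partner of Jun, rose by 1.24 ± 0.19. Atf3 lost its call without nonpermissive array 2 (adjusted p 0.0572 by limma). Csrnp1, a nuclear protein induced by growth signals, changed by -1.04 ± 0.21 (SE), and Sgk1, a kinase induced by serum and glucocorticoids, by -1 ± 0.08. The Csrnp1 call was lost without permissive array 1 (adjusted p 0.0566), nonpermissive array 1 (0.0651) or nonpermissive array 2 (0.0554). The number called lower was 3 without nonpermissive array 1 and 3 without nonpermissive array 2, and 12 on the spike-in scale.

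Among kinases and transcription factors upstream of these genes, 20 of 32 had a probe set, with 1 called higher and 3 lower (median change -0.17). Creb1, which binds the cAMP response element, was at 0.72 ± 0.14 (SE) by its brightest probe set and at -0.08 and 0.55 by its others, which were not called. Araf and Map2k2, kinases of the ERK cascade, changed by -0.68 ± 0.12 and -0.58 ± 0.13 (SE). A second Araf probe set was at -0.39, not called. Creb1 was not called without nonpermissive array 1 (adjusted p 0.0925) or 2 (0.0683), nor on the spike-in scale (0.0707). Araf was not called without nonpermissive array 1 (adjusted p 0.0508), nor Map2k2 without nonpermissive array 1 (0.0548) or 2 (0.11). All 3 lost their calls without the intensity trend, as did Atf2, F3, Usp28 and Hnrnpd in the lists below. Srf, the factor that binds CArG boxes, was at -0.32 ± 0.16 (SE) and was not called (adjusted p 0.22 by limma), and was chosen after its value was seen. Without nonpermissive array 1 none of this list was called in limma, with 3 higher and 5 lower at an unadjusted p under 0.05. Without nonpermissive array 2, 1 was called lower and none higher, with 2 higher at an unadjusted p under 0.05.

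Of 22 bZIP partners and inhibitors, proteins with the same kind of leucine zipper, 17 had a probe set, with 3 called higher and 2 lower (median change 0.01). Nfe2l2, the regulator of antioxidant genes, rose by 1.28 ± 0.09 (SE), and Atf3 was already counted among the other immediate early genes. Atf4, the factor of the amino acid stress response, changed by -0.90 ± 0.09 (SE). Atf2, a partner of Jun on cAMP response elements, was at -0.61 ± 0.16 (SE), a call that was lost when any 1 array was left out (adjusted p 0.0678 to 0.156 by limma) and on the deposited scale. The number called higher was 1 without nonpermissive array 2, and the number lower was 1 without permissive array 1 or 2 or nonpermissive array 2.

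Of 20 Egr corepressors and Egr1 targets, 14 had a probe set, with 2 called higher and 5 lower (median change -0.27). The corepressors Nab1 and Nab2, which bind Egr proteins, changed by -0.29 ± 0.14 and 0.16 ± 0.13 (SE) and were not called, and were chosen after their values were seen. Gdf15, a secreted stress factor that is also a p53 target, rose by 2.65 ± 0.42 (SE) from under the dim limit, and F3, the coagulation tissue factor, by 0.45 ± 0.07. The Gdf15 change was 3.59 with 1 added to each intensity and 1.63 with 64. F3 was not called after median centring (0.18) and was at -0.05 on the spike-in scale. Vegfa, the vascular growth factor, changed by -1.44 ± 0.15 (SE), with -1.55 by its second probe set, and Tgfb1 by -0.78 ± 0.19. The Tgfb1 call was lost when any 1 array was left out (adjusted p 0.0747 to 0.111 by limma). The number called lower was 1 without permissive array 1 and 1 without either nonpermissive array.

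Of 43 targets of AP-1, 41 had a probe set, with 8 called higher and 12 lower (median change -0.25). This list holds Fosl1 itself. It shares Vegfa, Tgfb1 and Cd44, all called lower, with the list of Egr1 targets, so the 2 counts are not separate observations. Plau, the urokinase plasminogen activator, rose by 2.37 ± 0.10 (SE) and by 2.38 with its second probe set. Areg, a ligand of the EGF receptor, rose by 1.67 ± 0.10 (SE). Mt2A, a metallothionein, changed by -2.65 ± 0.22 (SE) and Lcn2, an iron-binding secretory protein, by -2.49 ± 0.25, both to levels under the dim limit. Plaur, the receptor of urokinase, changed in the opposite direction to its ligand, by -1.29 ± 0.08 (SE), and Hbegf, another EGF receptor ligand, by -1.35 ± 0.10. The collagenase Mmp13 and the stromelysins Mmp3 and Mmp10 were dim, with changes of 0.34 ± 0.33, -0.55 ± 0.41 and -0.05 ± 0.27 (SE), and were not called. These 5 genes were chosen after their values were seen.

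Among 18 genes for the turnover of Jun and Fos proteins and mRNAs, 12 had a probe set, with 3 called higher and 2 lower (median change 0.11). Zfp36l1, which promotes the decay of mRNAs with AU-rich elements, rose by 1.06 ± 0.09 (SE), and Usp28, a ubiquitin protease, by 0.70 ± 0.17. Cops5, a signalosome subunit that binds Jun, changed by -0.84 ± 0.08 (SE), and Hnrnpd, an AU-rich element binding protein, by -0.68 ± 0.10. Usp28 was not called on the spike-in scale (0.45), nor without permissive array 1, nonpermissive array 1 or nonpermissive array 2 (adjusted p 0.0825 to 0.167 by limma), and the number called higher in the list was then 1. On the spike-in scale, where the median change of all probe sets was -0.34, Zfp36l1 was at 0.60 and Nfe2l2 at 0.85, while Atf4 was at -1.40, Cops5 at -1.28, Hnrnpd at -1.09, Araf at -1.02 and Map2k2 at -0.97.

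**Figure D4:**
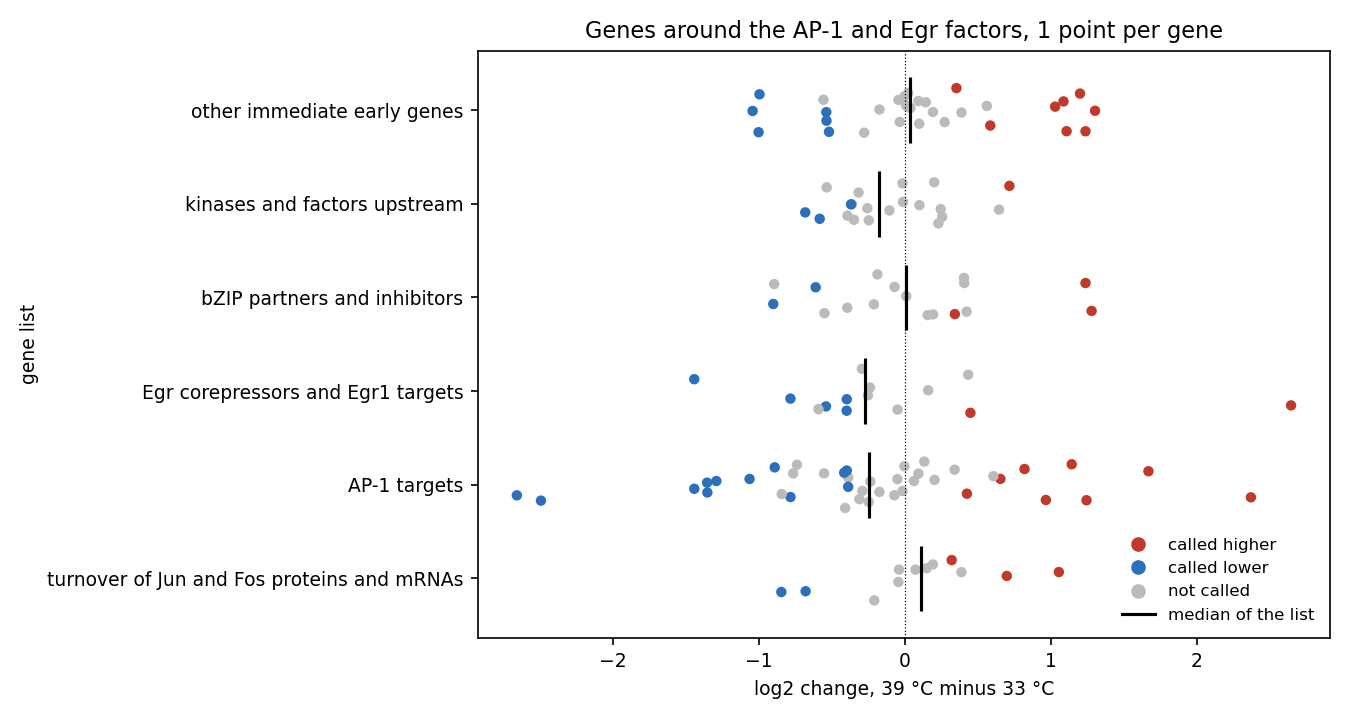
Log2 change of each gene in the 6 lists, 39 °C minus 33 °C, 1 point per gene by its brightest probe set. Red points were called higher, blue lower and grey not called, and black bars are list medians. Each list holds calls in both directions, and its median lies between -0.27 and 0.11.

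As a check of the labelled cell type, 8 of 10 airway epithelial markers were above the dim limit, with Krt5 and Tp63 below it, and their summed intensity was 72194 to 75378.6 at 33 °C and 78635 to 78767 at 39 °C. Of markers of other cells, 1 of 7 for fibroblasts (Col3a1), 2 of 5 for smooth muscle (Acta2 and Des), 1 of 5 for leukocytes (Cd14) and 0 of 3 for endothelium were above the dim limit by the mean of the 4 arrays. By the mean of each temperature, Col3a1, Des and Myh11 were above it only at 39 °C and Tagln only at 33 °C. Acta2 and Cd14 were above it at both. The summed fibroblast intensity was 216 to 238 at 33 °C and 334 to 409.9 at 39 °C, and the smooth muscle sum 582 to 772 and 518 to 639. Within these sums Col3a1 was called higher at 39 °C by 1.61 ± 0.30 (SE) and Myh11 by 1.84 ± 0.32, while Tagln was called lower, with intensities of 252 and 307 at 33 °C and 7.90 and 4.10 at 39 °C (-3.83 ± 0.31). Des was at 0.83 ± 0.30 (SE) and Acta2 at -0.32 ± 0.18, neither called. The leukocyte sum was 912 to 962 at 33 °C and 793 to 869 at 39 °C, and the endothelial sum 13.6 to 36.2 and 29.7 to 120.1. The part of these cells in the changes of the AP-1 and Egr genes was not tested. In bulk RNA a change in the number of cells of a type and in RNA per cell cannot be told apart. Over all probe sets the correlation between replicates was 0.978 (33 °C) and 0.981 (39 °C).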

How the data were processed

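Total RNA was labelled and hybridised to an Affymetrix rat array, 1 per sample, per the labels' protocols. The deposited intensities are linear, and judging by the values the authors had scaled each array to a trimmed mean of 500.1 to 500.2 (2% trimmed at each end). The summarising software is not given here by any source, and no detection calls were used. Precision is limited by having 4 arrays.

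The 57 control probe sets were left out, and log2(intensity + 16) was quantile normalized, so changes of dim probe sets are understated. Of 15866 probe sets 12783 had 1 gene symbol in GEO's platform annotation, 312 several and 2771 none listed; 12748 symbols matched RefSeq (GRCr8) by Entrez identifier and 0 differed. All 15866 were fitted in R 4.3.3 by lmFit and eBayes of limma 3.58.1 (prior variance following intensity, residual degrees of freedom 2, median prior 4.99), with Benjamini-Hochberg adjustment, two-sided. Genes in lists were taken by their brightest probe set, those ending in _x_at only where there was no other. Named were every member probe set, for each list the 2 called genes that rose most and the 2 that fell most, the nearest 3 profiles to Jun, Fosl1 and Egr1 (leaving out names starting with LOC or RGD), and genes marked as chosen after their values were seen. Members and lists were chosen with earlier results of these data known.

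On simulated data of 15866 probe sets, 1.49% of 67 changed by 0.5 on the log2 scale, 49.3% of 67 changed by 1 and 84.8% of 66 changed by 2 were recovered, with 0 unchanged ones among 90 called. Only probe sets more than 1 log2 unit above the dim limit were changed, so the rates do not cover dimmer members such as Fosl2. Far fewer were called than the 3926 of the main fit, so the adjustment was stricter in the simulation. Alternatives were 3 other scalings, adding 1 or 64, 2 filters on dim probe sets, 1 probe set per gene, a variance prior without trend, a replicate block, and dropping 1 array at a time. Figures used matplotlib 3.10.9 in Python 3.11.15.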

Additional observations from a re-analysis of the deposited data

How the results depend on the processing

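Over 191 values of the 15 member probe sets under the alternatives, 160 kept direction and side of the threshold, 15 lost a call, 3 gained one, 12 uncalled values changed sign, and the call of Ier3 turned to -0.11 with arrays scaled to spike-in controls. Over 298 values of 22 other named genes, 266 kept both, 31 lost a call, and F3 turned to -0.049 with spike-in scaling. That scaling moved the median change of all probe sets from -0.03 to -0.34 (-0.10 with arrays centred on medians), with 961 probe sets higher and 4087 lower against 1920 and 2006; 19.0% of calls were then higher, against 48.9%, 54.7% on the deposited scale and 38.2% after median centring. Members called were then 2 higher and 2 lower, upstream kinases and factors 0 (1 at an unadjusted p under 0.05 in limma) and 8, turnover genes 1 higher, Egr1 targets 1 higher, other immediate early genes 12 lower and bZIP genes 5 lower. With median centring 2 members were lower, Egr1 targets had 1 higher and upstream genes 5 lower, and on the deposited scale bZIP genes had 1 lower. Without the intensity trend 949 probe sets were higher and 889 lower; members had 2 higher and 0 lower (1 unadjusted), upstream genes 0 and 0 (2 and 2 unadjusted), turnover genes 1 and 1, Egr1 targets 1 and 2, bZIP genes 1 lower and other immediate early genes 3 lower. The difference of the Jun from the Fos and Egr medians was 0.95 above the 40th percentile and 1.19 above the 60th. Only brighter probe sets enter there. The Fos and Egr families were left with Fosl1, Fosl2 and Egr1 at the 40th, and with Fosl1 and Egr1 at the 60th. Fosl2 passed the 40th only through its nonpermissive arrays. With so few probe sets, neither difference is read as a wider contrast between the families. Under these filters upstream genes had 2 higher at the 40th, and Egr1 targets 1 higher at either and 3 lower at the 60th. AP-1 targets had 7 lower at the 60th. With 1 probe set per gene 3 members were higher, since Jun counts once.

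Leaving out each array in turn gave 977 to 1641 probe sets higher and 1149 to 1577 lower, 1 to 5 members higher and 1 to 2 lower, and a family difference of 0.18 to 0.87. List counts ranged over 0 to 1 higher and 0 to 3 lower for upstream genes, 1 to 3 and 1 to 2 for bZIP genes, 2 higher and 1 to 4 lower for Egr1 targets, 1 to 2 and 2 for turnover genes, 6 to 8 and 8 to 12 for AP-1 targets, and 6 to 7 and 3 to 5 for other immediate early genes. Fewer arrays enter these fits, and the lone array of a temperature is assumed to vary like the others. With the replicate block 1942 probe sets were higher and 2033 lower, with 5 and 1 members. Deviations of same-numbered arrays correlated at 0.0068, so no variation shared by number was seen. This check cannot tell whether same-numbered samples were handled together. The cause of changes not explained by fewer arrays or probe sets was not tested.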
